A study of Mus musculus with 10 samples.

Results

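GABA-A receptor subunit genes were examined in the cortical hem (CH), a signaling center at the medial edge of the embryonic cortex that secretes Wnt and Bmp proteins and gives rise to Cajal-Retzius cells. The 8 genes described were Gabra2, Gabra3, Gabra4, Gabra5, Gabrb1, Gabrb2, Gabrg1 and Gabrg3. They were found by symbol among the 52227 genes of the count table, and each has 1 row. The set was selected on results of the comparison between genotypes, so its values in that comparison are given as a description without a test. The CH was laser-captured at e13.5 from 5 wild-type embryos and 5 Lmx1a-/- embryos, and the captured sections of each embryo made 1 RNA-seq library. The Lmx1a-/- embryos carry dreherJ, a point mutation that inactivates Lmx1a, a transcription factor of the CH. The mutation is carried in the germline and is not restricted to the CH.

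GABA-A receptors are chloride channels opened by the transmitter GABA. Each channel is put together from several subunits, most often alpha, beta and gamma. Alpha and beta subunits form the GABA binding sites, and a gamma subunit together with an alpha subunit forms the binding site of benzodiazepines. In immature neurons and progenitors the chloride gradient often makes these channels depolarizing, and GABA is known to act on proliferation and migration before synapses form.

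The 8 genes lie in 3 clusters of the mouse genome and at a further locus on chromosome X (GRCm38). On chromosome 5, Gabrg1 (chr5:70751047-70842617), Gabra2 (chr5:70957597-71095849) and Gabra4 (chr5:71569749-71658308) lie on the minus strand, and Gabrb1 (chr5:71658113-72149037) follows on the plus strand. On chromosome 7, Gabrg3 (chr7:56716465-57387188) and Gabra5 (chr7:57407672-57510059) lie on the minus strand, 20.5 kb apart. Gabrb2 (chr11:42419757-42629028, plus strand) is on chromosome 11. Gabra3 (chrX:72432681-72656848, minus strand) is on chromosome X. Gabra4 and Gabrb1 are arranged head to head and overlap by 196 bases, of which 46 are exonic in both genes. These 46 bases are 0.756% of the exon length of Gabra4 and 0.332% of that of Gabrb1. Gabra5 shares 148 exonic bases, 4.98% of its exon length, with the antisense gene Gm9962. The strand setting used for counting is not stated, so reads from such shared bases cannot be assigned to one gene.

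The start regions of Gabrb1 and Gabra4 are shown because these neighbors, divergent from nearly the same point, had the largest differences of the set. Each window runs from 250 bases before an annotated start to 50 bases after it, on the strand of the gene (RefSeq, GRCm38.p6), with CG dinucleotides in capitals. The windows are chr5:71657671-71657970 and chr5:71699682-71699981 for the first and second start of Gabrb1 (plus strand), and chr5:71658259-71658558 for Gabra4 (minus strand).
Gabrb1, first start: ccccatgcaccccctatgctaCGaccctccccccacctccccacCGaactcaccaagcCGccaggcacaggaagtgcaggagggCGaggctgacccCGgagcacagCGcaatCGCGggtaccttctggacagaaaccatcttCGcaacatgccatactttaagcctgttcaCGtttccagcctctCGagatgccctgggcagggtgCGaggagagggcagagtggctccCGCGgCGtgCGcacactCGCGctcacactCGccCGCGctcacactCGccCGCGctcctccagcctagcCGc
Gabrb1, second start: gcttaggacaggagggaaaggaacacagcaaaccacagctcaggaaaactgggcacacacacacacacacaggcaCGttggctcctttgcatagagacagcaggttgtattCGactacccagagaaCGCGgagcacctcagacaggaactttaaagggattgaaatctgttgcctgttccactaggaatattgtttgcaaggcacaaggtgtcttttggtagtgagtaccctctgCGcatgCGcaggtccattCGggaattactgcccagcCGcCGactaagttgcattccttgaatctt
Gabra4: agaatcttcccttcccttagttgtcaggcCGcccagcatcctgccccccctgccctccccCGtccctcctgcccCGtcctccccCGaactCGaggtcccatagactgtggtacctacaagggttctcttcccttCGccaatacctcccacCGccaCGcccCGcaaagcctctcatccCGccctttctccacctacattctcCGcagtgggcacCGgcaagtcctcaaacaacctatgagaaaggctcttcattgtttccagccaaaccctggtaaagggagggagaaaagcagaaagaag
The first start of Gabrb1 was 387 bases from the start of Gabra4 and 42011 bases from the second Gabrb1 start. This RefSeq start is at chr5:71657921, whereas the Gabrb1 span given above, from GENCODE M21, begins at chr5:71658113. The overlap of 196 bases with Gabra4 is that of the GENCODE spans. The window at the first Gabrb1 start held 25 CG dinucleotides, against a median of 7 over 32851 mouse windows, and 18.4% of windows held as many or more. The second Gabrb1 window held 9 and the Gabra4 window 12. All 8 genes matched the table of start regions, with 12 windows in all. The letters TAATTA, a sequence bound by many homeodomain proteins, were searched on both strands and were in 5.29% of all windows. Among the 12 windows they were in that of Gabrg1, with 2 matches, and in none of the Gabrb1 or Gabra4 windows. These letter matches describe the windows and were not tested as binding sites.

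Levels are given as normalized CPM (TMM-scaled counts relative to library size) to compare libraries, and as RPKM (CPM per kilobase of exon) to compare genes. Gabrb1, which encodes the beta-1 subunit, was the subunit with the largest difference. In wild-type embryos 1 to 5 it was at 68.6, 55.1, 73.1, 58.9 and 74.3 CPM. In Lmx1a-/- embryos 1 to 5 it was at 23.6, 19.3, 11.9, 13.2 and 22.7 CPM. Every Lmx1a-/- library was thus below every wild-type library. The wild-type mean of 66 ± 8.59 CPM (SD, n = 5) was 3.65 times the Lmx1a-/- mean of 18.1 ± 5.38 CPM (SD, n = 5). The fitted log2 fold change was -1.87 (SE 0.19). In bulk samples, fewer cells that express a gene and less RNA per cell cannot be told apart.

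Gabrb2, which encodes the beta-2 subunit, had an estimate on the other side of 0. It was at 12.1, 5.95, 6.12, 3.68 and 6.72 CPM in wild-type embryos 1 to 5. The Lmx1a-/- libraries were at 9.88, 10.2, 7.77, 6.92 and 9.81 CPM. Wild-type embryo 1 had the highest value of all 10 libraries, and the groups overlapped. The log2 fold change was 0.36 (SE 0.26).

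Gabra4, which encodes the alpha-4 subunit found mostly in extrasynaptic receptors of the adult brain, had the second-lowest estimate. Its level was 33.4, 26.4, 29, 18 and 33.5 CPM in wild-type embryos 1 to 5. In Lmx1a-/- embryos 1 to 5 it was 12.2, 18.7, 11.1, 6.9 and 11.1 CPM. The groups overlapped because Lmx1a-/- embryo 2 was just above wild-type embryo 4. The mean was 28.1 ± 6.39 CPM against 12 ± 4.28 CPM (SD, n = 5 each), with a log2 fold change of -1.23 (SE 0.23).

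Gabra2 encodes the alpha-2 subunit, a major alpha subunit of the immature forebrain. It was at 22.7, 18, 22.7, 9.96 and 16.8 CPM in wild-type embryos 1 to 5. The Lmx1a-/- libraries were at 13.8, 14.7, 7.87, 4.79 and 16.7 CPM. Embryo 4 was the lowest library in both genotypes, and the ranges overlapped. The log2 fold change was -0.65 (SE 0.31).

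Gabra3 and Gabra5, which encode the alpha-3 and alpha-5 subunits, were lower in abundance. Gabra3 ranged from 1.25 to 5.3 CPM in wild-type and from 2.77 to 4.74 CPM in Lmx1a-/- CH, with a log2 fold change of 0.27 (SE 0.37). Gabra5 ranged from 0.235 to 1.05 CPM and from 0.277 to 2.23 CPM, with a log2 fold change of 1.07 (SE 0.56). Gabra5 rested on 8 to 64 counts per library, and the lowest count of 8 has an exact 95% Poisson interval of 3.45 to 15.8, which covers counting error alone. For both genes the groups overlapped.

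The gamma subunits, which help to place receptors at synapses, had low counts. Gabrg1 ranged from 0.156 to 5.15 CPM in wild-type and from 1.06 to 3.58 CPM in Lmx1a-/- CH, with a log2 fold change of -0.21 (SE 0.61). Its lowest library, wild-type embryo 4, held 3 counts (exact 95% Poisson interval 0.619 to 8.77). Gabrg3 ranged from 0.706 to 3.21 CPM and from 0.681 to 1.63 CPM, with a log2 fold change of -0.62 (SE 0.45). The direction of Gabrg1 rested on 1 library, since its log2 fold change was 0.44 without wild-type embryo 1.

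**Figure D1:**
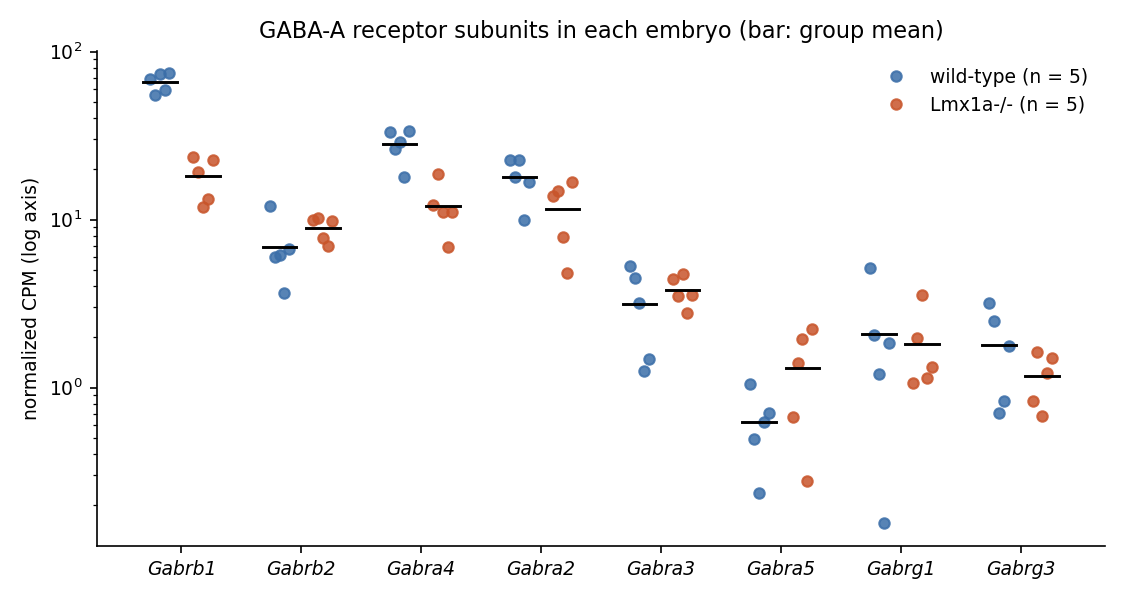
Normalized CPM (log axis) of the 8 subunit genes in each of 5 wild-type and 5 Lmx1a-/- libraries, with a bar at each group mean. The groups are apart for Gabrb1, from 55.1 to 74.3 CPM against 11.9 to 23.6 CPM, and overlap for the other 7 genes.

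Across the set, 5 of 8 estimates were below 0 and 3 above it, with a median log2 fold change of -0.42. Over all 21664 genes tested, 50.6% of estimates were below 0. Without wild-type embryo 1 the median of the set was 0.07. With edgeR's quasi-likelihood test at an FDR under 0.1, 4.02% of all tested genes passed, 2.29% lower and 1.72% higher in Lmx1a-/- CH. All 8 subunit genes passed the filter on low counts, and 2 of them, Gabrb1 and Gabra4, were past that threshold, both lower. Gabra4 was not past it in the fits with Xist or with choroid plexus markers as a covariate, described below. Groups without overlap were found for 4.44% of all tested genes and for 1 of the 8. As the set was chosen on this comparison, these counts describe it and support nothing further.

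Per kilobase of exon, Gabrb1 and Gabra4 were the most abundant of the 8 in wild-type CH, at 4.77 and 4.62 RPKM. Gabrb1 was the higher in 2 of 5 wild-type libraries, so their order was not resolved. They were followed by Gabra2 at 2.36, Gabrb2 at 1.09, Gabra3 at 0.801, Gabrg1 at 0.265, Gabra5 at 0.209 and Gabrg3 at 0.151 RPKM. Gabra4 was above Gabra2, Gabra2 above Gabrb2, and Gabra3 above Gabrg1 in all 5 wild-type libraries, although the ranges of all neighbors in this order overlapped between embryos. The level of Gabra4 depended on the gene length used, and was 6.84 RPKM with its longest transcript in place of all exons.

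In Lmx1a-/- CH the order was Gabra4 at 1.97, Gabra2 at 1.51, Gabrb2 at 1.4, Gabrb1 at 1.31, Gabra3 at 0.971, Gabra5 at 0.439, Gabrg1 at 0.23 and Gabrg3 at 0.0982 RPKM. Gabrb1 was the fourth by its mean, and was below Gabrb2 in 3 of 5 libraries, or in 5 of 5 with the longest transcript of each gene as its length. The summed level of the 8 genes was 14.3 ± 3.02 RPKM in wild-type and 7.93 ± 1.95 RPKM in Lmx1a-/- CH (SD, n = 5 each). Gabrb1 made up 34.3 ± 6.28% of this sum in wild-type and 16.7 ± 3.54% in Lmx1a-/- CH. The share of Gabra4 was 32.3 ± 2.42% and 24.6 ± 4.29%, and that of Gabrb2 was 7.37 ± 1.83% and 18.1 ± 2.52%. That of Gabra3 was 5.44 ± 2.63% and 12.7 ± 3.07%. A share also rises when the sum of the 8 falls, and Gabrb2 itself was at 1.09 RPKM in wild-type and 1.4 RPKM in Lmx1a-/- CH.

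**Figure D2:**
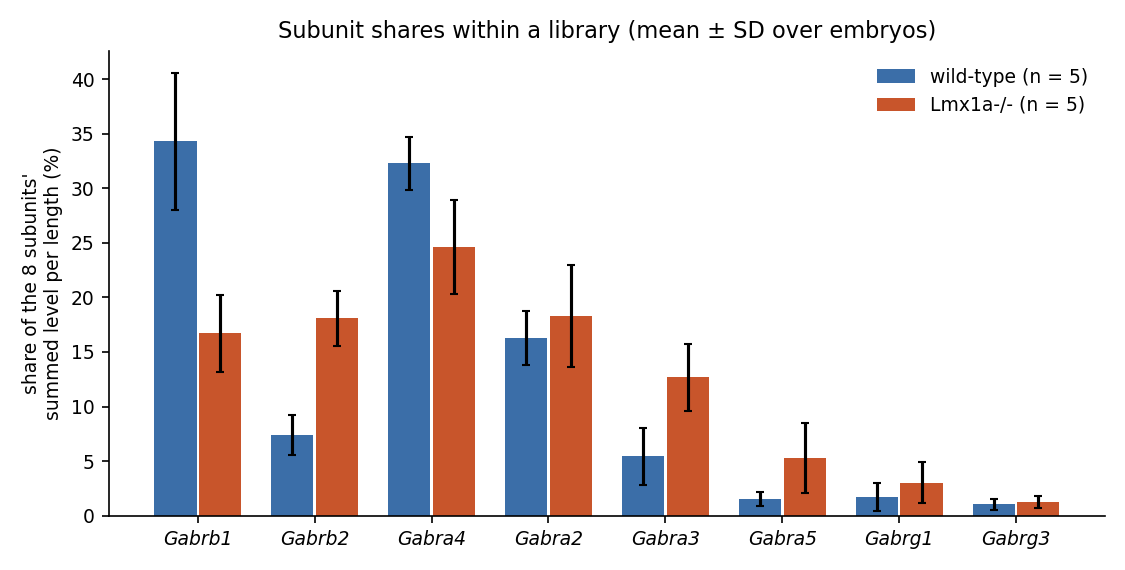
Share of each subunit gene in the summed RPKM of the 8 genes (percent, mean ± SD over 5 embryos per genotype). Gabrb1 makes up 34.3% of the sum in wild-type and 16.7% in Lmx1a-/- CH, and Gabrb2 7.37% and 18.1%. Shares depend on the sum of the 8, which was lower in Lmx1a-/- CH.

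Ratios within a library do not depend on the scaling of libraries. The ratio of Gabrb1 to Gabrb2 per length was 2.62, 4.25, 5.49, 7.35 and 5.08 in wild-type embryos 1 to 5. In Lmx1a-/- embryos 1 to 5 it was 1.1, 0.873, 0.702, 0.875 and 1.06. The groups did not overlap for this ratio. They did not overlap for Gabrb1 itself either, so the ratio carries that same difference and is no separate support. Its size depended on the gene length used, and with the longest transcripts it was 1.65 to 4.64 in wild-type and 0.443 to 0.694 in Lmx1a-/- CH. Between the head-to-head neighbors, the ratio of Gabrb1 to Gabra4 ranged from 0.902 to 1.44 in wild-type and from 0.452 to 0.896 in Lmx1a-/- CH, with the highest Lmx1a-/- library just below the lowest wild-type library. With the longest transcripts these ranges were 0.613 to 0.978 and 0.308 to 0.609.

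The other GABA-A receptor subunits were read from the same fit. The chosen set was picked with results of this comparison known, so the counts among the remaining subunits are not independent of that choice. Of 11 such genes 7 passed the filter on low counts, and 0 passed the FDR threshold in edgeR's quasi-likelihood test. At an unadjusted p under 0.05 there were 0, and with DESeq2 0, against 3545 and 1766 of all 21664 tested genes. Gabra6, which encodes the alpha-6 subunit of cerebellar granule cells, had 0 counts in every library.

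Gabre and Gabrq, which encode the epsilon and theta subunits and lie near Gabra3 on chromosome X, had log2 fold changes of 0.49 (SE 0.28) and 0.27 (SE 0.38), with edgeR FDR of 0.421 and 0.777. Gabrp, the pi subunit gene best known from tissues outside the brain, ranged from 6.94 to 38.4 CPM in wild-type embryos. In Lmx1a-/- embryos it was at 11, 0, 33.7, 0 and 0.73 CPM, and its log2 fold change of -1.15 had an SE of 1.10 (edgeR FDR 0.659). Gabrr1, a rho subunit gene, had 0 to 42 counts per library (log2 fold change 1.03, SE 1.17, edgeR FDR 0.715). Gabrd, Gabrr2 and Gabrr3 were below the filter.

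Beyond the subunits, 6 lists of genes for GABA metabolism, chloride transport, receptor anchoring and related receptors were examined. With the other subunits, 74 listed genes were tested with edgeR's quasi-likelihood test at an FDR under 0.1. Of these 1 was lower and 1 higher in Lmx1a-/- CH, and 72 did not pass. By this call the share was not above the 4.02% of all tested genes. At an unadjusted edgeR p under 0.05 there were 14 of the 74, against 3545 of all 21664 tested genes. DESeq2 called 8 of the 74, against 1766 of all. In the list for receptor anchoring and trafficking these counts were 6 and 3 of 23. The median log2 fold change of the 74 was 0.10. Clptm1, which holds back GABA-A receptors in the endoplasmic reticulum, fell by 0.34 on the log2 scale (SE 0.08, edgeR FDR 0.0451). Its wild-type mean was 76.2 ± 6.49 CPM and its Lmx1a-/- mean 60 ± 3.75 CPM (SD, n = 5 each). Trak1, an adaptor of kinesin transport whose relatives bind GABA-A receptors, rose by 0.41 on the log2 scale (SE 0.10, edgeR FDR 0.0447), from 103 ± 13.3 to 137 ± 10.9 CPM. Clptm1 did not pass without Lmx1a-/- embryo 4 or embryo 5, with embryo number as a block, or with any of the 4 covariates described with the properties of the libraries (Xist, and markers of choroid plexus, neurons and radial glia). Trak1 did not pass without wild-type embryo 1 or Lmx1a-/- embryo 4, or with the Xist, choroid plexus or radial glia covariate. The covariates were themselves correlated with genotype, as given with the subunit fits. Over all alternatives, the FDR of Clptm1 ranged from 0.00552 (DESeq2) to 0.7 (edgeR) and that of Trak1 from 0.00512 (DESeq2) to 0.534 (edgeR).

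Among genes for GABA synthesis, packaging, uptake and breakdown, 8 were tested and 0 passed with edgeR, against 1 at an unadjusted p under 0.05 and 1 with DESeq2 (Slc6a13, a GABA transporter). All 8 estimates were above 0, from 0.16 to 1.92. Gad2, a GABA-synthesizing enzyme, averaged 7.64 ± 4.08 CPM in wild-type embryos against 13.4 ± 10.9 CPM in mutants (SD, n = 5 each), and Lmx1a-/- embryo 5 reached 32.1 CPM. The same library had the highest summed level of 11 markers of GABAergic neurons and their progenitors, at 271 CPM, against 65.5 to 138 CPM in the other 9 libraries. Of these markers 1, Dlx5, passed the FDR threshold, higher in Lmx1a-/- CH, and their part in the values of this list was not tested. Among chloride transport genes 0 of 11 passed with edgeR, 5 had an unadjusted p under 0.05 and DESeq2 called 4. Of all 21664 tested genes, 3545 had an unadjusted edgeR p under 0.05, and DESeq2 called 1766. The estimates of these 11 genes ran from -1.45 to 0.41. In the GABA-B receptor list 0 of 5 passed, in the glycine receptor list 0 of 3, and in the ionotropic glutamate receptor list 0 of 17 with edgeR. In each list the best-expressed pair per length was also read. Aldh5a1 and Abat, which break down GABA, had log2 fold changes of 0.23 (SE 0.14) and 0.16 (SE 0.23). Wnk1 and Wnk3, kinases that regulate chloride cotransporters, had 0.06 (SE 0.06) and 0.32 (SE 0.11). Rdx and Gabarap, which anchor or carry receptors, had -0.08 (SE 0.07) and -0.29 (SE 0.13). The estimates for Gabbr1, Kctd12, Glrb, Glra4, Gria2 and Grik2 were between -0.27 and 0.15. None of these 12 genes passed in edgeR's fit. Of the 3 receptor lists, the glutamate receptors had 2 genes at an unadjusted p under 0.05 and the others 0, and DESeq2 called 0 in all 3.

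**Figure D3:**
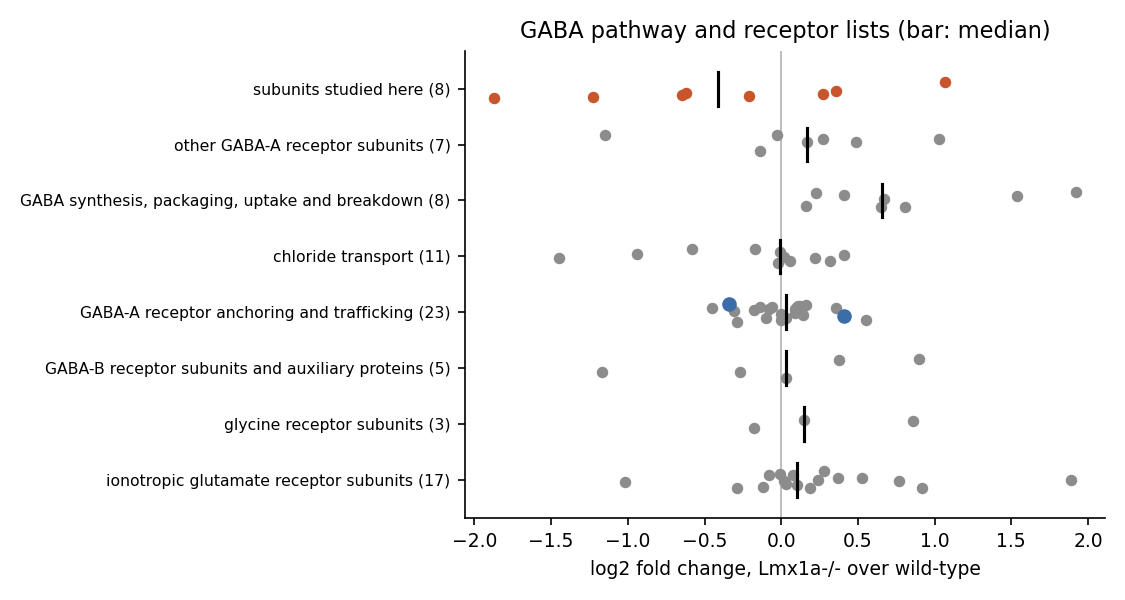
Log2 fold change of each tested gene (points) in the 8 subunit genes and in 7 lists, with the number tested in brackets and a bar at each median; blue points passed an FDR under 0.1 in the lists. The 8 subunit genes span -1.87 to 1.07, and the other 7 subunits -1.15 to 1.03.

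The genes around the clusters were read from the same fit. Of 154 genes that start within 1 Mb of a subunit gene, 68 were tested and 3 passed, 2 lower and 1 higher (edgeR, FDR under 0.1), a share near the 4.02% of all tested genes. On chromosome 5, 1 of 17 passed. Tec, a tyrosine kinase of blood cells among others, fell by 0.76 on the log2 scale (SE 0.20, edgeR FDR 0.0752), and passed in 4 of 10 fits with 1 library left out. On chromosome X, Bgn, a matrix proteoglycan, fell by 1.01 (SE 0.27, edgeR FDR 0.077) and passed in 5 of 10 such fits. Hmgb3, a chromatin protein of dividing cells, rose by 0.34 (SE 0.09, edgeR FDR 0.0722) and passed in 2 of 10. The median log2 fold change of the 17 chromosome 5 neighbors was -0.24, against -0.00 for chromosome 7. Several of the 17, such as Corin, Txk and Slc10a4, were near the floor, at 0.508, 0.597 and 0.369 CPM on average. Inside the introns of Gabrb1, the pseudogenes Gm15617 and Gm15616 had log2 fold changes of -1.98 (SE 0.86) and -1.56 (SE 0.58), and did not pass (edgeR FDR 0.266 and 0.189). Both count among the 17 and averaged 0.468 and 0.536 CPM. Whether their reads come from Gabrb1 transcripts was not tested.

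**Figure D4:**
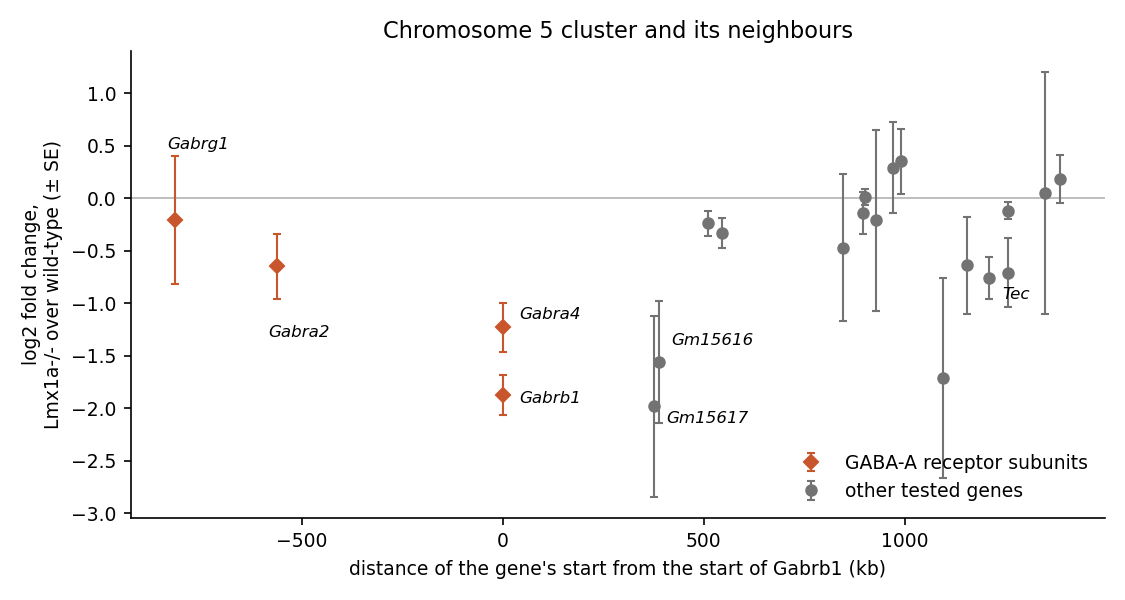
Log2 fold change (± SE) of the tested genes around the chromosome 5 cluster against the distance of each gene's start from the start of Gabrb1 in kb. Gabrb1 (-1.87) and Gabra4 (-1.23) lie at nearly the same point. Gabra2 (-0.65, SE 0.31) and Gabrg1 (-0.21, SE 0.61) lie farther off. A trend with distance was not tested.

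The pattern of Gabrb1 over the 10 libraries was compared with that of 16716 genes with a mean of at least 1 CPM. The genes most like it were Dusp3 (r = 0.972), Dab1 (r = 0.967), Camk2a (r = 0.964), Optn (r = 0.96) and Socs2 (r = 0.952), with Spearman's rho from 0.806 to 0.939. Dusp3 is a phosphatase, Dab1 the intracellular adaptor of Reelin signaling, Camk2a a calcium-dependent kinase, Optn an autophagy receptor and Socs2 a suppressor of cytokine signaling. In mutants the mean of each of these 5 genes was below the wild-type mean, which follows from how they were ranked. The groups of Gabrb1 did not overlap, so r over the 10 libraries includes the difference between genotypes. The wild-type mean of Dab1 was 133 ± 12.8 CPM against 80.7 ± 15.1 CPM in mutants, and that of Socs2 was 222 ± 22.7 against 80.2 ± 7.46 CPM (SD, n = 5 each). With the mean of each genotype taken off, Sh3bgrl (r = 0.96), Gas7 (r = 0.931), Gm43266 (r = 0.927), Bnip2 (r = 0.921) and Gm37033 (r = 0.918) were the most alike. Among the subunits, r with Gabrb1 over the 10 libraries was 0.889 for Gabra4, 0.712 for Gabra2 and 0.34 for Gabrg3. It was -0.123 for Gabrg1, -0.328 for Gabrb2 and -0.339 for Gabra3. With the genotype means taken off it was 0.512 for Gabra4 and 0.773 for Gabra2, at ranks 1647 and 191 of 16716 genes. For Gabrb2 it was then 0.472, and for Gabrg3, Gabra3 and Gabrg1 between -0.085 and 0.132. All points share the 10 libraries and their depth.

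Several properties of the libraries moved with genotype, and others overlapped between genotypes. Totals overlapped, at 19407267 to 33130138 counts in wild-type and 19145952 to 36462780 counts in Lmx1a-/- libraries. Xist was at 4399 to 5169 CPM in wild-type embryos 2 to 5 and at 1.15 CPM or less in wild-type embryo 1 and all Lmx1a-/- embryos, which in turn had Y-linked transcripts (Uty, Kdm5d, Ddx3y and Eif2s3y), so sex and genotype were largely aligned. All 14 CH markers were detected, of which 6 were lower and 1, Lmx1a itself, higher in Lmx1a-/- CH. Lmx1a transcripts are kept by a point mutation, so their level does not check the labels. The 11 radial glia markers summed to 1835 to 2773 CPM across wild-type libraries. Mutant libraries had sums of 3074 to 3925 CPM, so the ranges did not overlap. Of these 11 markers 3 passed, each higher in mutants, and the list had a median log2 fold change of 0.38. Vim alone rose from a mean of 671 to 1223 CPM, so the sum does not describe every marker. The 15 markers of postmitotic neurons summed to 923 to 1469 and 1040 to 1636 CPM, and those of choroid plexus epithelium, adjacent to the CH, to 289 to 831 and 309 to 426 CPM. These choroid plexus sums overlapped, but 4 of 14 tested markers passed, each of them lower in mutants. Over this list the log2 fold change had a median of -1.34. Of 10 tested Cajal-Retzius cell markers 4 were lower and 1 higher, of 9 markers of mesenchyme and meninges 3 were lower, and of 8 markers of cortical projection neurons 2 were higher. The 8 red blood cell markers summed to 632 to 1472 and 267 to 573 CPM. No marker of these lists was at 0 in all libraries, and their part in the subunit differences was not tested.

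Fits that include these measures give the subunit values beside them. Over the 10 libraries the covariates were correlated with genotype, at r = -0.829 for Xist and -0.807 for choroid plexus markers. For neuron and radial glia markers r was 0.473 and 0.762. Such fits cannot fully separate a covariate from genotype. Gabrb1 had a log2 fold change of -1.93 (SE 0.30) with Xist as a covariate, -2.02 (SE 0.29) with choroid plexus markers, -2.07 (SE 0.19) with neuron markers and -2.21 (SE 0.26) with radial glia markers. When wild-type embryo 1 alone was set against the Lmx1a-/- embryos, all without Xist transcripts, it was -1.93. Gabra4 ranged from -1.84 to -1.33 and Gabra2 from -1.46 (SE 0.40, radial glia markers) to -0.76 (SE 0.50, choroid plexus markers) in the 4 covariate fits. Gabra3 and Gabrb2 changed direction with Xist as a covariate, to -0.47 (SE 0.58) and -0.49 (SE 0.34). They also did so with radial glia markers, to -0.39 (SE 0.50) and -0.39 (SE 0.29). Only embryo 1 of the wild-type embryos lacked Xist transcripts, so all values with Xist as a covariate rest largely on it. That embryo had the highest level of both genes, at 5.3 CPM for Gabra3 and 12.1 CPM for Gabrb2. Gabrg1 and Gabrg3 changed direction with choroid plexus markers, to 0.99 (SE 1.02) and 0.67 (SE 0.80). Gabra5 stayed above 0 in the 4 fits, from 0.39 with Xist to 2.42 with choroid plexus markers.

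**Figure D5:**
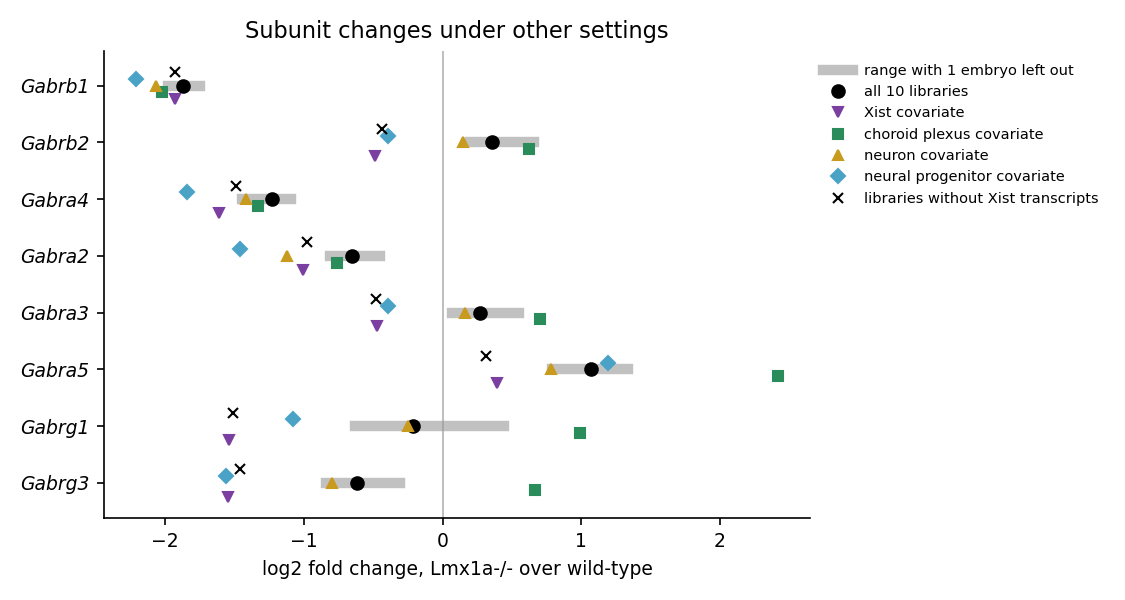
Log2 fold change of each subunit gene in the fit of all 10 libraries, over fits with 1 embryo left out (gray bar), with 4 covariates, and among libraries without Xist transcripts. Gabrb1 stays between -2.21 and -1.75, while Gabrg1 lies between -1.54 and 0.99.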

How the data were processed

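Libraries were made from the CH of 10 embryos (5 per genotype), with genotype and embryo number taken from the labels. After trimming with Trimmomatic, the authors used STAR 2.7.1a to align the read pairs to GRCm38, and deposited raw HTSeq 0.11.2 counts per gene, with no normalization. The strand setting is not given in the sources used here. Of 52508 rows, 281 repeated another row and were dropped. Positions and exon lengths are from GENCODE M21.

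The 21664 genes that reached 10 counts in 3 or more libraries were compared in R 4.3.3 with edgeR 4.0.16 (TMM, quasi-likelihood test, no covariate). P values were adjusted by Benjamini-Hochberg over all tested genes, with an FDR under 0.1 as the threshold. DESeq2 1.42.0 was an alternative, and the scripts were tested on simulated data. The SE is the log2 fold change divided by the square root of F. The subunit genes and lists were chosen with earlier results of these data known. Beside the subunits, genes named were those past the threshold in each list or among neighbors (at most 5). Others were the best-expressed pair of each list per length, further subunits, check genes, and the 5 genes most like Gabrb1 by each measure. Gad2, Slc6a13, Dlx5 and Vim were named after their values were seen. Likeness used log2 CPM with a prior count of 2. Some further subunits are not reported here.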

Additional observations from a re-analysis of the deposited data

Results flagged for a closer look

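In 84 groups of 5 libraries, Dixon's test was applied to the CPM of part of the named genes. Xist, Lmx1a, the Y-linked genes, Gad2, Slc6a13 and Dlx5, among others, were not screened. Of the 84 groups 2 held a library far from the others, where chance gives about 1 in 20 groups. Bgn was at 13.7 CPM in Lmx1a-/- embryo 4, against 30.6 CPM in the next-lowest library of that genotype. Gabrr1 was at 0.739 CPM in wild-type embryo 5, against 0.0588 CPM in the next-highest wild-type library. None of the 8 subunit genes of the chosen set met this criterion in either genotype.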

How the results depend on the processing

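Gabrb1 kept its direction in all 23 alternatives, from -2.21 to -1.75, and Gabra4 from -1.84 to -1.09. These are fits of the same values on which the set was chosen and are no independent support. The median of the 8 subunits moved from -0.42 to -1.28 with Xist, 0.64 with choroid plexus and -1.27 with radial glia markers as covariate, and to -1.22 among libraries without Xist transcripts. It was -0.66 to 0.07 with 1 library left out. On the wild-type side, the median with the Xist covariate rests largely on embryo 1. That among libraries without Xist transcripts rests on this embryo alone. The radial glia covariate was chosen after seeing the data.

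Genes past the threshold numbered 27 with Xist, 26 with choroid plexus, 392 with neuron and 118 with radial glia markers as covariate, 1766 with DESeq2, and 451 to 1059 with 1 library left out, against 870. Calls among the listed pathway genes were 0 with the Xist, choroid plexus and radial glia covariates, 1 with the neuron covariate, 8 with DESeq2 and 0 to 4 with 1 library left out. Calls among cluster neighbors were 0 with the Xist, choroid plexus and radial glia covariates, 1 with the neuron covariate and 0 to 3 with 1 library left out. With the longest transcript as length, wild-type Gabra2 was at 3.08, Gabra4 at 6.84 and Gabrb2 at 1.73 RPKM. The covariates were correlated with genotype, so fits that include them cannot fully separate a covariate from genotype. The cause of these shifts was not tested.

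With embryo number as a replicate block, 1 pathway gene and 0 cluster neighbors passed. Same-numbered embryos correlated between -0.0985 and 0.0133 in their deviations from the group means and 0 of 5 correlated best with their own number, so the numbers were not taken as pairs. Counts of 3 to 138 per library limit what can be said of Gabrg1, and 8 to 64 of Gabra5.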
